A study of Rattus norvegicus with 6 samples.

Results

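The genes described here are 9 genes of interleukin 6 (IL-6) family signalling: the cytokines Il6, Il11, Lif and Clcf1, the receptor chains Il6st and Lifr, the transcription factor Stat3 and the inhibitors Socs2 and Socs3. They were taken by symbol, and all 9 were found among the 17327 gene symbols of the count files. They were measured in cultured Schwann cells, the glia that ensheathe peripheral axons, isolated from the sciatic nerves of adult female Wistar rats. They were grown in medium with 10% foetal bovine serum, 63 ng/mL glial growth factor (itself a neuregulin, so all samples had met this ligand before) and 10 μM forskolin, which activates adenylyl cyclase. Confluent cells were kept for 18 h in starving medium with 2% serum and 10 μM forskolin and then received, for 6 h, either 10 nM soluble NRG1β1 (called NRG1 from here on) or the same volume of its PBS buffer with 1% bovine serum albumin (mock). Each of 3 independent cell preparations gave 1 mock and 1 NRG1 sample with the same replicate number. Serum and forskolin were thus present in both groups, and no axons were present in either.

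Cytokines of the IL-6 family bind receptors that share the signalling chain gp130, the product of Il6st. For LIF the partner chain is the product of Lifr, while IL-6 and IL-11 first bind receptors of their own. Janus kinases attached to these chains then phosphorylate STAT3, which enters the nucleus. One of the genes that STAT3 activates is Socs3, whose product binds gp130 and shuts the signal down, a classical negative feedback. In injured peripheral nerves Schwann cells are a known source of LIF and IL-6, which act on neurons, on macrophages and on the Schwann cells themselves.

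Of the 9 genes, 8 passed the filter on low counts and were tested among 9740 genes. Il11 and Lif rose with NRG1, by 4.28-fold (95% interval 3.36 to 5.44) and 3.17-fold (95% interval 2.54 to 3.96). None of the 8 fell. Clcf1 was just outside the threshold, and Il6st, Lifr, Stat3, Socs2 and Socs3 did not pass. Il6 was not tested, because it was counted almost only in the 2 samples of replicate 1. The test was edgeR's quasi-likelihood test on raw counts with replicate number as the block. A gene was called at a Benjamini-Hochberg adjusted p of at most 0.01. At this threshold 6.31% of all tested genes rose and 5.51% fell. Both called genes also passed the 2-fold limit (an absolute log2 fold change over 1), which 3.47% of all tested genes passed in either direction and 1.56% upwards. The median log2 fold change of the 8 tested genes was 0.31, against -0.03 over all tested genes. Among these 8 genes edgeR gave an unadjusted p under 0.05 for 4 higher genes and 1 lower gene, against 17% higher and 18.7% lower of all tested genes. Of the 8, DESeq2 with the replicate block called 3 higher and 0 lower. Of the 13129 genes in that fit it called 570 higher and 384 lower.

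The samples held between 6821590 and 15475018 counts on genes, and 3 counts, taken as the lowest level that could be seen, were worth between 0.194 and 0.444 CPM (counts scaled to a common library total with edgeR's TMM factors). Levels below are CPM, which do not correct for gene length and are therefore compared between samples and not between genes. The 2 samples of replicate 1 stood apart from the other 4 on the first principal component, which held 68% of the variance. Of 8 fibroblast markers, Dcn, Lum and Thy1 were at 0 in all 4 samples of replicates 2 and 3 and at 611.2 and 427 CPM (Dcn), 23.2 and 14.8 CPM (Lum) and 1268 and 1143 CPM (Thy1) in mock and NRG1 sample 1. The summed level of the 8 was 53430 and 57730 CPM in replicate 1 and between 13700 and 22340 CPM in the others, most of it from Col1a1, which was high in every sample, and Col3a1. The summed level of 11 Schwann cell markers, all of them counted in every sample, was 6499 and 5226 CPM in replicate 1 and between 13250 and 17070 CPM in replicates 2 and 3. Of these 11, 5 fell with NRG1 (5.51% of all tested genes fell) and none rose. Among the 5 were the myelin gene Mbp, the myelination factor gene Egr2 and the Schwann cell genes S100b and Cdh19, with log2 fold changes from -1.71 for Egr2 to -0.58 for S100b. Of 10 macrophage markers 5 (Ptprc, Adgre1, C1qa, C1qb and Tyrobp) were at 0 in every sample, and the sum of all 10 did not exceed 10.3 CPM. The endothelial markers Pecam1 and Cdh5 were at 0 in every sample, and the summed level of the 6 in that list lay between 6.53 and 15.4 CPM. The part of these cells in the results was not tested, and the log2 fold change of each of the 8 tested genes is given below with and without replicate 1. In a bulk sample, a change in the number of cells of a type cannot be told apart from a change in RNA per cell.

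**Figure D1:**
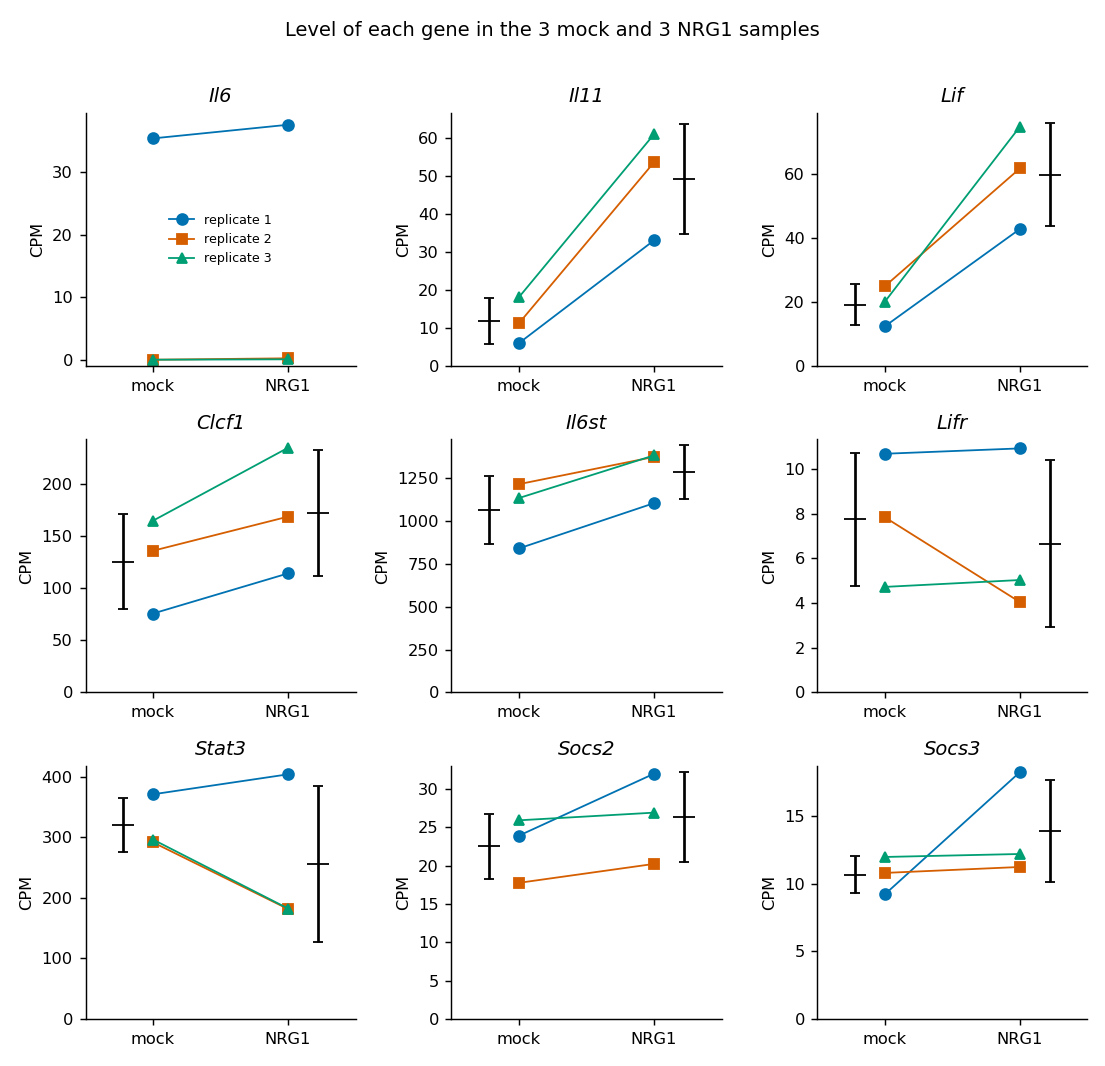
Level (CPM, linear axis) of each of the 9 genes in mock and NRG1 samples. Lines join the 2 samples of a replicate, and black bars give the mean ± SD of 3 samples (not drawn for Il6). For Il11 and Lif every NRG1 sample lies above every mock sample, while Il6 is near 0 outside replicate 1 and Stat3 is lower with NRG1 in replicates 2 and 3 and not in replicate 1.

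Il11, which encodes interleukin 11, had the largest log2 fold change of the 8 tested genes. It was counted at 6.01, 11.2 and 18.1 CPM in mock replicates 1 to 3 and at 33.1, 53.6 and 61 CPM in NRG1 replicates 1 to 3. The lowest NRG1 sample was thus above the highest mock sample, as was the case for 10.2% of all tested genes, with 9.94% separated the other way. The mock mean was 11.8 ± 6.07 CPM (SD, n = 3) and the NRG1 mean 49.2 ± 14.5 CPM (SD, n = 3). Il11 thus rose by 2.10 on the log2 scale (standard error, SE, 0.16, edgeR adjusted p = 2.31e-06), which placed it at position 11 of all tested genes by p. The mock level differed by a factor of about 3 between the lowest and the highest culture, but the log2 ratios within pairs 1, 2 and 3 were 2.42, 2.23 and 1.74. Without replicate 1 the log2 fold change was 1.97 (SE 0.21, edgeR adjusted p = 1.68e-18). Its SE was larger than over 3 pairs while its p was smaller. The p values without replicate 1 are therefore, here and below, not comparable with those over 3 pairs.

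Lif, the gene of leukaemia inhibitory factor, was counted at 12.4, 25 and 20.2 CPM in mock samples 1, 2 and 3 and at 42.9, 61.9 and 75 CPM in NRG1 samples 1, 2 and 3. These groups did not overlap either. With a mock mean of 19.2 ± 6.35 CPM (SD, n = 3) and an NRG1 mean of 60 ± 16.1 CPM (SD, n = 3), Lif rose by 1.66 on the log2 scale (SE 0.15, edgeR adjusted p = 7.38e-06, position 23 by p). The log2 ratio was 1.77 in pair 1, 1.30 in pair 2 and 1.88 in pair 3. As with Il11, the lowest levels of both conditions were those of replicate 1. Without that replicate the log2 fold change was 1.62 (SE 0.20, edgeR adjusted p = 1.16e-13). In edgeR without the replicate block neither gene passed, with log2 fold changes of 2.05 for Il11 (adjusted p = 0.179) and 1.64 for Lif (adjusted p = 0.167), while DESeq2 with no block called both.

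Clcf1 encodes cardiotrophin-like cytokine factor 1, which acts through the receptor of ciliary neurotrophic factor. It was counted at 75.6, 135.8 and 164.6 CPM in the mock samples and at 114.1, 168.5 and 234.5 CPM in the NRG1 samples. The groups overlapped, but the NRG1 sample was the higher one in each pair, with log2 ratios of 0.59, 0.31 and 0.51. The log2 fold change was 0.47 (SE 0.12), a factor of 1.39 with a 95% interval of 1.16 to 1.65, and the edgeR adjusted p of 0.0112 missed the threshold by little. At an adjusted p of 0.05, where 11.5% of all genes rose, it would be the third gene of the 9 to pass. Without replicate 1 its log2 fold change was 0.42 (SE 0.18, edgeR adjusted p = 0.0858).

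The window upstream of Il11 is shown because this gene changed most, and that of Il6 for comparison, because it is the one cytokine of the 4 that was near 0 in 4 samples. RefSeq (assembly GRCr8, which is not the build of the counts) gave a window for 6 of the 9 genes, not for Lif, Clcf1 and Socs2. Each is the 250 bases before the annotated start, 5′ to 3′ on the strand of the gene, in lower case with the motif match in capitals. In the window of Il11, at chr1:78098372-78098621 on the plus strand, the match is to the AP-1 site TGANTCA, and in that of Il6, at chr4:5894576-5894825 on the minus strand, to the cAMP response element TGACGTCA.
Il11: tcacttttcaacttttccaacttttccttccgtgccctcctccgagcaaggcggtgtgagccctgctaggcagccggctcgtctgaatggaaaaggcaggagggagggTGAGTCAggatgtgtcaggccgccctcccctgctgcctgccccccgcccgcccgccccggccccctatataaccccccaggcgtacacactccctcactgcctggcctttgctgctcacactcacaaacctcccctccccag
Il6: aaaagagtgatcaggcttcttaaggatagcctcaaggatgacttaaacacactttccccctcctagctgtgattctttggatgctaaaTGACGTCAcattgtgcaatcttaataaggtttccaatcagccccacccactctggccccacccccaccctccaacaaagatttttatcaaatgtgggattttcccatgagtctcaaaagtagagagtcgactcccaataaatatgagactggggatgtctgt
The match in Il11 covered bases 142 to 136 before the start, and that in Il6 covered bases 162 to 155. Both strands were searched, and neither match overlapped another motif. The AP-1 motif was present in 6.34% and the cAMP motif in 1.59% of 33469 windows of the same length. Neither of them had a match in the windows of Il6st, Lifr, Stat3 and Socs3. The other motifs searched, the STAT site TTCNNNGAA (7.67% of windows) and the ETS core CCGGAAG (7.27% of windows), had no match in any of the 6 windows, that of Socs3 included. These matches describe letters only, and binding was not measured.

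Il6, the founding cytokine of the family, was counted almost only in replicate 1. Its raw counts were 265 in mock sample 1 and 282 in NRG1 sample 1, against none in mock samples 2 and 3, 2 in NRG1 sample 2 and 1 in NRG1 sample 3. In replicate 1 this gave 35.4 CPM in mock and 37.6 CPM in NRG1, a ratio of 1.06 with a 95% interval of 0.895 to 1.26 (exact binomial, counting error only). NRG1 and mock thus did not differ beyond counting error in the only pair with enough counts. In replicates 2 and 3 a change was not detectable at this depth, since the 0 in mock samples 2 and 3 allows levels of up to 0.444 and 0.236 CPM. Over the pooled libraries, the level in replicate 1 was 533 times that in replicates 2 and 3 (547 against 3 counts, 95% interval 182 to 2590, counting error only).

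Il6 was not alone in this. Of 13129 genes with any count, 107 (0.815%) had at least 10 CPM in both samples of replicate 1 and at most 3 counts in each of the other 4, and 1 gene had the opposite pattern. Il6 was among the 107, and so were the fibroblast markers Dcn, Lum and Thy1. Another fibroblast marker, Pdgfra, was counted at 870.1 and 827.2 CPM in replicate 1 and at 1.61 CPM or less in the others. The fibroblast marker Col1a2, in contrast, had no more than 2 counts in any sample, although Col1a1 was high in all. Fbln1 of the same list had no such split, with 7.88 and 7.73 CPM in replicate 1 and between 3.03 and 7.8 CPM in the others.

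The same split ran through 2 receptor genes of the family, which are named here after their values were seen. Osmr, the receptor chain for oncostatin M, was at 126.4 and 162.2 CPM in mock and NRG1 sample 1 and at 0.592 CPM or less in the other 4, a ratio of 703 (2163 against 9 counts, 95% interval 370 to 1540, counting error only). Il11ra1, the receptor that binds IL-11, was at 44.1 and 36.3 CPM in replicate 1 and between 0.775 and 2.29 CPM in replicates 2 and 3, a ratio of 24.8 (95% interval 19.4 to 32.2, counting error only). Il11 itself was lowest in replicate 1. The 4 samples of the cultures in which Il11 was higher had 12 to 29 counts of Il11ra1 per sample. Il11ra1 was tested and did not pass, with a log2 fold change of -0.51 (95% interval -1.04 to 0.01, edgeR adjusted p = 0.147).

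**Figure D2:**
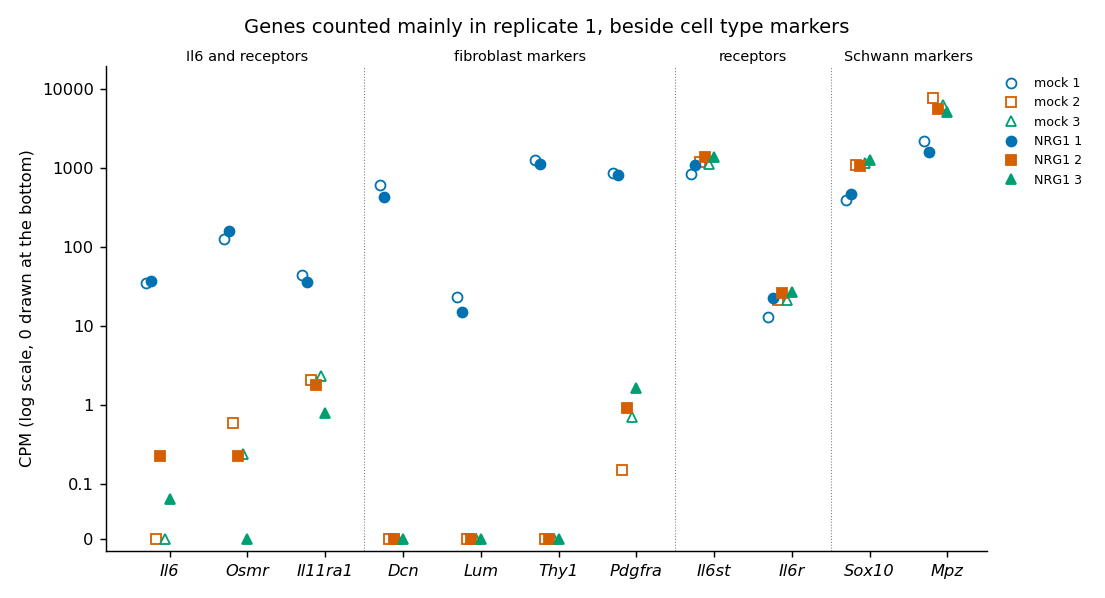
Level (CPM, log axis, 0 drawn at the bottom) of Il6, Osmr and Il11ra1 beside 4 fibroblast markers, 2 receptors counted in all samples and 2 Schwann cell markers. The fibroblast markers Col1a1, Col1a2, Col3a1 and Fbln1 are not drawn. Open symbols are mock and filled symbols NRG1 samples. Il6, Osmr, Dcn, Lum, Thy1 and Pdgfra are high in both samples of replicate 1 and near or at 0 in the other 4, while Il6st and Il6r are present in all.

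Of the shared receptor chains, Il6st was abundant in every sample. It was counted at 840.9, 1216 and 1135 CPM in mock samples 1, 2 and 3 and at 1105, 1375 and 1384 CPM in NRG1 samples 1, 2 and 3. The NRG1 sample was higher in each pair, by 0.39, 0.18 and 0.29 on the log2 scale, yet the groups overlapped. The log2 fold change of 0.29 (95% interval 0.01 to 0.56) had an edgeR adjusted p of 0.124 and did not pass, nor did that of 0.23 without replicate 1 (SE 0.19, edgeR adjusted p = 0.426).

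Lifr, the partner chain for LIF, was counted at 10.7, 7.84 and 4.73 CPM in the mock samples and at 10.9, 4.05 and 5.04 CPM in the NRG1 samples. The 2 samples of replicate 1 held the highest levels, and the log2 ratios of 0.03, -0.92 and 0.09 had no common direction. Its log2 fold change of -0.23 had a 95% interval of -0.74 to 0.29 (edgeR adjusted p = 0.535), which, from 36 to 82 counts per sample, holds changes in either direction. Leaving out replicate 1 gave -0.38 (SE 0.31, edgeR adjusted p = 0.436).

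The values of Stat3 were not alike in the 3 pairs. The mock samples 1, 2 and 3 held 371.1, 291.7 and 296.3 CPM, and the NRG1 samples 1, 2 and 3 held 404.1, 181.6 and 182.4 CPM. Both NRG1 samples of replicates 2 and 3 were below every mock sample, whereas NRG1 sample 1 was the highest of all 6. The log2 ratios were 0.12 in pair 1, -0.68 in pair 2 and -0.70 in pair 3. Over the 3 pairs the log2 fold change of -0.42 (SE 0.16, 95% interval -0.75 to -0.09) did not pass, with an edgeR adjusted p of 0.0649. Without replicate 1 it was -0.69 (SE 0.18, edgeR adjusted p = 0.00156) and passed, from 2 pairs. As with Il11, that p is not comparable with the one over 3 pairs. The difference between the pairs was not itself tested, since 1 culture has no replicate of its own, and the part of the fibroblast markers that set replicate 1 apart was not tested.

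**Figure D3:**
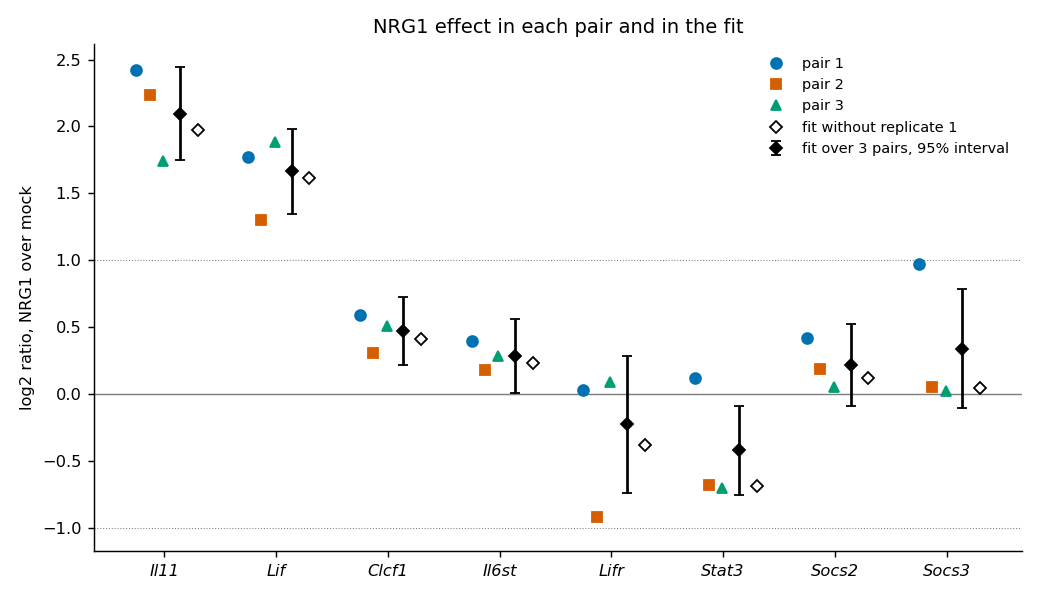
Log2 ratio of NRG1 over mock for the 8 tested genes, in each replicate pair and in the edgeR fit over 3 pairs with its 95% interval, and in the fit without replicate 1 (open diamonds). Dotted lines mark 2-fold changes. Il11 and Lif lie above the upper line in all 3 pairs, Stat3 is lower in pairs 2 and 3 and not in pair 1, and Socs3 is higher mainly in pair 1.

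The feedback inhibitors did not pass the test. Socs3, whose product blocks gp130, was counted at 9.22, 10.8 and 12 CPM in the mock samples and at 18.3, 11.2 and 12.2 CPM in the NRG1 samples. NRG1 sample 1 stood above the other 5, which lay close together. The log2 ratios were accordingly 0.97 in pair 1 and 0.06 and 0.03 in pairs 2 and 3. The fit gave a log2 fold change of 0.34 (95% interval -0.10 to 0.78, edgeR adjusted p = 0.259), and without replicate 1 it was 0.04 (SE 0.24, edgeR adjusted p = 0.934). Socs2, better known as an inhibitor of growth hormone signalling, was counted at 23.9, 17.8 and 25.9 CPM in mock and at 32, 20.2 and 26.9 CPM with NRG1. The log2 fold change was 0.21 (95% interval -0.09 to 0.52, edgeR adjusted p = 0.307), and 0.12 without replicate 1 (SE 0.21, edgeR adjusted p = 0.766). The intervals over 3 pairs leave room for a rise of Socs3 by up to 1.72-fold and of Socs2 by up to 1.44-fold. They do not reach the lower bound of Il11 or Lif.

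Of the 8 tested genes, 6 were higher in the NRG1 sample of all 3 pairs, namely Il11, Lif, Clcf1, Il6st, Socs2 and Socs3, against 25.9% of all tested genes, and none was lower in all 3, against 30% of all tested genes. For 4 of these 6 the change was not past the threshold.

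The other genes of the family and pathway were taken from 4 lists of 39 genes, of which 36 were among the symbols and 31 were tested. Of these 31, 2 fell, Stat2 among them, and none rose, against 5.51% of all genes that fell and 6.31% that rose. In edgeR the unadjusted p was under 0.05 for 5 higher and 7 lower genes, again against 17% and 18.7% of all tested genes. DESeq2 with the replicate block called 0 higher and 2 lower, against 570 higher and 384 lower of all 13129 genes in that fit. The median log2 fold change of the 31 was -0.12, against -0.03 over all tested genes.

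Stat2 encodes a transcription factor of interferon signalling. It was at 56.2, 42.2 and 35.1 CPM in mock and at 47.2, 15.5 and 16 CPM in NRG1 samples. On the log2 scale it fell by 0.92 (SE 0.19, edgeR adjusted p = 0.00309). The fall of Stat2 in pair 1 was 0.25 on the log2 scale, against 1.43 and 1.12 in pairs 2 and 3. Without replicate 2 or without replicate 3 its edgeR adjusted p was 0.0143 and 0.0145, both above the threshold of 0.01, whereas without replicate 1 the log2 fold change was -1.28.

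None of the other ligands that were tested passed, and DESeq2 called none of them. Cntf, which encodes ciliary neurotrophic factor, an abundant product of myelinating Schwann cells, was lower in each NRG1 sample than in its mock, with 5.88, 18.9 and 18.1 CPM in mock and 4.93, 12.2 and 9.68 CPM in NRG1 samples. Its log2 fold change of -0.66 (SE 0.19) had an edgeR adjusted p of 0.0226 and did not pass over 3 pairs. It did pass without replicate 1, with -0.77 (edgeR adjusted p = 0.00757), a p not comparable with the one over 3 pairs. Osm, the gene of oncostatin M, had 1 count in each of 2 samples and 0 in the other 4, and Ebi3 had 1 to 10 counts. The genes of this list and of the receptors, kinases and inhibitors below were named after their values were seen.

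Among the other receptors no gene was called either, by edgeR or by DESeq2. Il6r, the specific receptor for IL-6, was counted in every sample, at 13.1, 21.2 and 21.4 CPM in mock and at 22.8, 26.4 and 27.3 CPM in NRG1 samples. Its groups did not overlap, but the log2 fold change of 0.47 (95% interval 0.15 to 0.80) had an edgeR adjusted p of 0.0379. Cntfr, through which the products of Cntf and Clcf1 act, had between 3 and 42 counts per sample and a log2 fold change of -0.91 (95% interval -1.65 to -0.18, edgeR adjusted p = 0.0685). Among the genes of the Janus kinases that carry the signal, Jak1, Jak2 and Tyk2 were not called, and their 95% intervals lay within -0.50 and 0.13 on the log2 scale. Jak3 had log2 ratios of 0.44 in pair 1, -1.43 in pair 2 and -0.84 in pair 3, the same signs as Stat3. It was not called over 3 pairs (-0.55, SE 0.26, edgeR adjusted p = 0.142), but it was without replicate 1 (-1.12, SE 0.24, edgeR adjusted p = 4.23e-05). Those p values too are not comparable. All 15 tested inhibitors outside the 9 genes, among them Cish, the Pias genes and the phosphatase genes Ptpn1, Ptpn2, Ptpn6 and Ptpn11, stayed over the threshold, with an unadjusted p under 0.05 for 3 higher and 1 lower gene. DESeq2 called none of these 15. The lowest edgeR adjusted p among them was that of Pias3, an inhibitor of STAT3, at 0.0136 with a log2 fold change of -0.49. Ptpn1 came next and went the other way, with a log2 fold change of 0.46 (edgeR adjusted p = 0.0183).

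**Figure D4:**
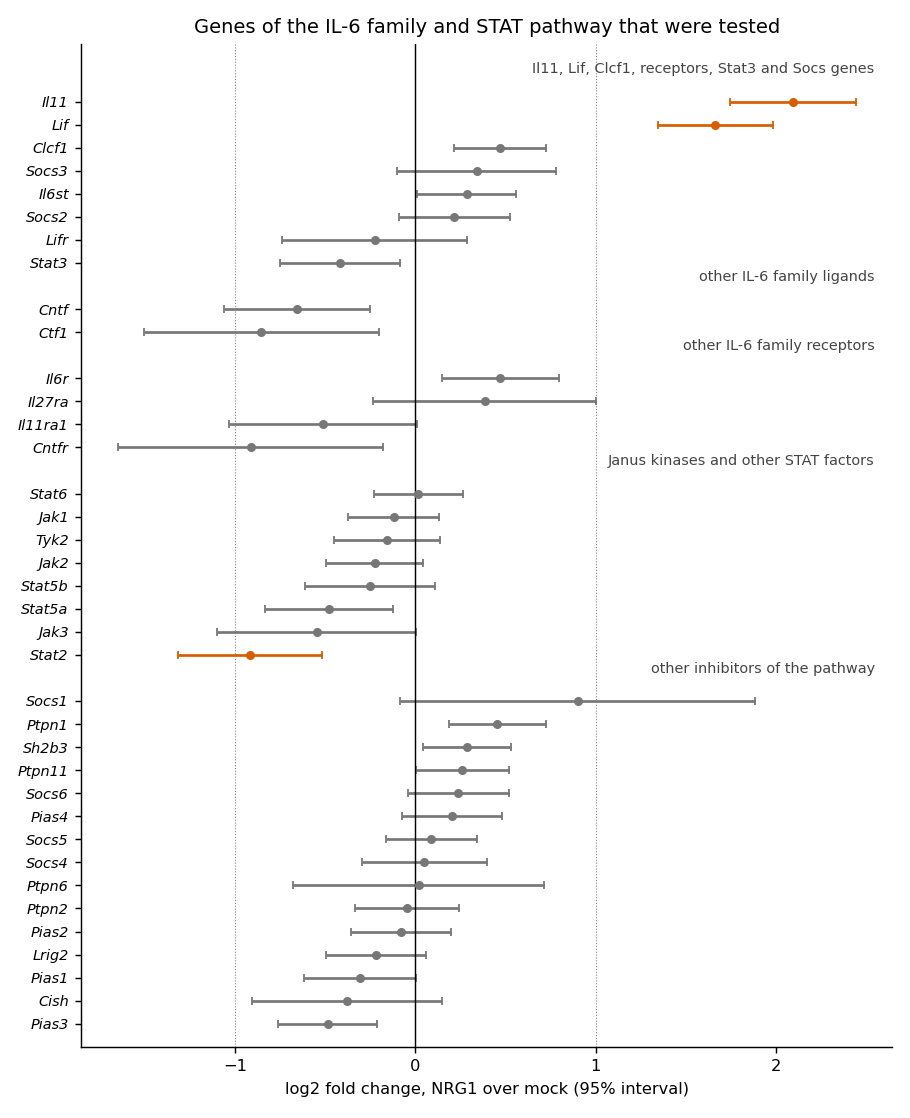
Log2 fold change of NRG1 over mock with its 95% interval for the 8 tested genes and for other tested genes of the pathway, by group. Orange marks an edgeR adjusted p of at most 0.01, and dotted lines mark 2-fold changes. Of the genes drawn, Il11 and Lif are called upwards and Stat2 downwards. Several genes that are not called have intervals wholly on 1 side of 0. Stat3, Cntf, Cntfr and Pias3 are among those below 0, and Clcf1, Il6st and Il6r among those above 0.

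A list of 24 genes known as targets of STAT3 in other cells, many of them also targets of other factors, showed changes in both directions. Of 20 tested, 4 rose (Ccl2, Ccnd1, Myc and Tnfrsf12a) and Fos fell, against 6.31% and 5.51% of all tested genes, and the median log2 fold change was 0.09, against -0.03 over all tested genes. Ccl2, the gene of a chemokine that attracts monocytes, was at 47.7, 1.48 and 14 CPM in mock and at 133, 15.3 and 33 CPM in NRG1 samples, and its log2 fold change was 1.64 (SE 0.22, edgeR adjusted p = 0.000175). DESeq2 with the replicate block gave it an adjusted p of 0.0112. Ccnd1, the gene of cyclin D1, rose by 1.39 on the log2 scale (SE 0.13, edgeR adjusted p = 1.23e-05), and Tnfrsf12a, a receptor gene of the tumour necrosis factor family, by 0.71 (SE 0.12, edgeR adjusted p = 0.00107). Myc rose by 0.72 (SE 0.13, edgeR adjusted p = 0.00167) and was not called without replicate 1, where its adjusted p was 0.014. Fos, which encodes a component of AP-1, fell by 1.61 (SE 0.12, edgeR adjusted p = 2.21e-06). Without replicate 1 Ccl2, Ccnd1, Tnfrsf12a and Fos were still called, with log2 fold changes of 1.83, 1.29, 0.63 and -1.65. The acute-phase genes Lcn2, A2m and Fgg had at most 2 counts in any sample.

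By pattern over the 6 samples, the genes most like Il11 were Vgf (Pearson r = 0.999), Atg7 (r = 0.997) and Noc2l (r = 0.996), and those most like Lif were Slc2a6 (r = 0.999), Cluh (r = 0.995) and Stard7 (r = 0.995). These values come from log2 CPM of 6 samples that share 3 cultures, and 244 genes had an r over 0.95 with Il11 and 117 with Lif. The size of the changes was not alike. Vgf, a neuropeptide precursor gene, rose by 2.47 on the log2 scale (SE 0.31, edgeR adjusted p = 9.29e-05) from 1.11 CPM in mock, while Slc2a6, a sugar transporter gene, had 0.18 (SE 0.13, edgeR adjusted p = 0.356).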

How the data were processed

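RNA of 3 mock and 3 NRG1 samples was sequenced by the authors on an Illumina instrument after poly(A) selection. Reads were mapped by the authors to the rat rn5 assembly with TopHat2 2.0.10 and counted per RefSeq gene with HTSeq, whose version is not given in the sources used here. The deposited values are raw counts. The summary lines of HTSeq, between 50.1% and 53% of alignments, were left out of library sizes.

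Counts were analysed with edgeR 4.0.16 in R 4.3.3 (filterByExpr at a minimum count of 10, TMM, quasi-likelihood fit with replicate number and condition). Standard errors are the log2 fold change over the square root of F. Ratios within pairs used log2 CPM with a prior count of 2. Exact intervals cover counting error only. Pairing follows from the shared preparation, and deviations of same-numbered samples correlated across genes with r of 0.906, 0.673 and 0.81. Mock 3 with NRG1 2 gave 0.514 and mock 2 with NRG1 3 gave 0.512. Differently numbered samples with 1 from replicate 1 gave r from -0.797 to -0.706. Deviations were taken from the mean of the 3 samples of a group and so cancel out within it. Negative r against the replicate that stood apart is therefore no separate evidence of pairing. No 2 samples agreed within sampling noise (the lowest chi-square over its degrees of freedom was 21.4). DESeq2 1.42.0 and the other alternatives are given in the closing section. The fit was tested on simulated data. The genes and lists were chosen with earlier results of these data known. All 9 genes were named, with list genes at an adjusted p of at most 0.01 (the 6 largest per list) and the 3 genes most like each gene past both thresholds. Some list genes enter the counts but their values are not reported here.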

Additional observations from a re-analysis of the deposited data

How the results depend on the processing

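Il11 and Lif were the 2 genes risen over 2-fold with NRG1 under each alternative except edgeR with no replicate block, where 0 rose, 0 passed 2-fold and 0 of the other pathway genes were called. In that fit edgeR called 0 of 9740 genes in all. An unadjusted edgeR p under 0.05 was found for 2 of the 8 genes, against 1334 of all 9740. The common biological coefficient of variation was 0.374 instead of 0.119. DESeq2 with no replicate block, chosen after seeing the data, called both Il11 and Lif but 0 of the other pathway genes. Without replicate 1 there was 1 fallen gene, Stat3, while 0 fell without replicate 2 or 3, and from 2 to 3 rose. As said for Il11, p values without replicate 1 are not comparable with those over 3 pairs. Clcf1 passed with DESeq2 with the block (log2 fold change 0.49), RLE normalization (0.48), no low-count filter (0.46), robust empirical Bayes and an adjusted p of 0.05 (both 0.47), and without replicate 2 (0.55). With no low-count filter the SE of Clcf1 was larger than with the filter (0.13 against 0.12), while its p was smaller. The p values and calls with no low-count filter are therefore not comparable with those after the filter either. Lifr turned from -0.23 to 0.063 without replicate 2. It was -0.38 in the fit without replicate 1 and also in the fit without replicate 3. The other pathway genes called numbered 4 with no low-count filter, 7 at an adjusted p of 0.05 and from 1 to 4 when a replicate was left out. Il6 reached a fit in 4 alternatives, with log2 fold changes from 0.11 to 0.34, and was called in none. Of 88 values of the other 8 genes under the alternatives, 78 kept their direction and side of the threshold. The alternative at an adjusted p of 0.05 used the same fit, so no direction could change there. Causes were not tested. Low counts limit what can be said of a change in Il6 in replicates 2 and 3, in Lifr and in Cntfr.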
